A study of Mus musculus with 9 samples.

Results

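The genes described here encode the proteins of the cytosolic ribosome, the machine that translates messenger RNA outside the mitochondria. They were chosen by name alone, as the rows with a mouse Ensembl identifier whose symbol is that of an Rpl, Rps or Rplp gene or Rpsa, without kinases and named pseudogenes. The rule found 80 of the 27719 genes and loci in the table, 31 for the small (40S) subunit and 49 for the large (60S) subunit. They lie on 19 chromosomes, with 4 on the X chromosome. Their annotated transcripts are mostly short, with a median of 723 nt and a range from 345 to 5130 nt.

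The RNA came from the colon of 9 C57BL/6J mice in 3 groups of 3, read as full-length cDNA on an Oxford Nanopore instrument. Control mice drank distilled water. The DSS group drank 2.5% dextran sodium sulfate, which injures the colon epithelium, for 7 days. The DSS + EA group drank the same DSS and, after 5 days of modeling, received electroacupuncture (EA), a current of 0.2 mA at 2 Hz through needles at the ST36 point of each hind limb. A session lasted 30 minutes and was repeated daily on 5 days. The other 2 groups were held for the same time without current. All mice were killed after the 5 treatment days, no genetic change was made in any group, and the age of the mice is not given in the sources used here. The colon was taken as a whole tissue, so that a lower level can come from fewer cells of a type or from less RNA per cell, which cannot be told apart.

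Each ribosome contains a single copy of most ribosomal proteins, and cells keep the proteins in step with each other and with ribosomal RNA. Their messages begin with a run of pyrimidine bases, the terminal oligopyrimidine (TOP) motif, through which the growth-sensing kinase complex mTORC1 and the binding protein LARP1 set how strongly they are translated and stored. In the colon, which renews its epithelium continuously, ribosome production is a large part of the work of dividing crypt cells, and immune cells and fibroblasts that become active also raise it.

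The library totals were 3742630, 3229346 and 2627695 counts in control mice 1 to 3. They were 3189244, 4235576 and 3230895 in the DSS mice, and 3259727, 2842304 and 3283282 in the DSS + EA mice. Levels are given as CPM, which puts all libraries on the same total, adjusted by TMM, a scaling that sets the bulk of genes equal between mice. At these depths 3 counts were worth 0.647 to 1.14 CPM on this adjusted scale, far under the level of nearly every member. Intervals and floors cover counting error only, since PCR copies of a molecule were not told apart.

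The tissue label was checked against defining genes. Vil1, a structural protein of the intestinal brush border, was at 136.9 to 171.5 CPM in the control mice, 70.21, 32.77 and 18.58 CPM in the DSS mice and 156 to 171.2 CPM in the DSS + EA mice. Cdx1, an intestinal transcription factor, was found in every mouse, from 7.121 CPM in DSS mouse 3 to 74.83 CPM in DSS + EA mouse 2. DSS + EA mice 2 and 3 stood apart in another way. The summed level of 10 marker genes of pancreatic acinar cells was 28180 and 14180 CPM there, with Cela2a the most abundant, against 500.4 CPM in DSS + EA mouse 1, 119.8 to 259.6 CPM in the control mice and 41.49 to 94.47 CPM in the DSS mice. For the DSS + EA comparisons, the counts and medians of the members and the counts of the gene lists are given with these 2 mice and without each of them.

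The members were among the most abundant messages of the colon. Of the 80, 75 had a mean of at least 500 CPM over the 9 mice and 70 had at least 1000 CPM, with a median of 1927 CPM. After the filter on low counts 77 members remained for testing, all 31 of the 40S subunit and 46 of the 60S subunit, with means from 56.86 to 7980 CPM. Rpl41, which encodes the smallest ribosomal protein, had the highest level per length, 15680 CPM per kb as a mean of the 9 mice, and took 4.22% to 5.34% of the counts of all members. The acidic stalk protein gene Rplp1 followed at 8994 CPM per kb and Rpl38 at 7232 CPM per kb. The lowest of the tested members on this scale were Rps27 at 164.8 CPM per kb, Rpl5 at 391.5 CPM per kb and Rps20 at 439.3 CPM per kb. The length is the median of the annotated transcripts of a gene, 3706 nt for Rps20, and need not be that of the messages read. Before division by length Rps20 was at 1628 CPM and Rpl5 at 800.6 CPM, so this order depends on the annotation. Rpl24 was at 782.5 CPM per kb and Rpl23a at 502.1 CPM per kb.

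The 3 members that were not tested are copies of other members that are known for use in testis or muscle. Rpl10l had no count in any mouse, which allows up to 3 counts in each. Rpl39l had 1 count, in DSS mouse 3. Rpl3l, the striated muscle counterpart of Rpl3, was counted 1, 0 and 0 times in control, 3, 16 and 48 times in DSS and 3, 3 and 0 times in DSS + EA. Its counts were thus highest in DSS mice 2 and 3. Its control level is under the floor of 3 counts, so no fold is given.

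Short stretches at the start of the genes show what many members share. RefSeq windows of the GRCm38.p6 build, from 250 bases before to 50 bases after a transcript start, were at hand for 60 of the 80 genes, as 72 windows, and for 32851 windows of all genes. Capitals mark the motif, and positions are on the build mm10 or its equal GRCm38. The first 3 windows hold CCGGAAG, which contains the core that ETS family factors bind, with the Rpsa window holding it on the opposite strand, as CTTCCGG. The last 3 hold CTCTTTCC, a pyrimidine run. The windows are examples and not a contrast between called and other members. Of the 25 members with CCGGAAG in a window 4 were called higher in DSS than in control, and of the 10 with CTCTTTCC 1 was. Rpl39l, among the 25, was not tested. Of all 77 tested members 13 were called higher, and of all genes tested 21.5%, so these counts set neither motif apart. In the Rpl28 window the run begins at the RefSeq start, and in the Rpl11 window 65 bases before it.
Rpsa, chr9:120127567-120127596, plus strand: cgccccagctaCTTCCGGcctggggtctgt
Rps25, chr9:44407630-44407659, plus strand: cacccattgccCCGGAAGtactctctcgag
Rpl31, chr1:39367848-39367877, plus strand: ctccccgtgacCCGGAAGttgtacggctac
Rpl11, chr4:136053440-136053469, minus strand: cagctatgcctCTCTTTCCccctctcccct
Rpl35a, chr16:33056471-33056500, plus strand: ggcttgccttcCTCTTTCCgccatcttggc
Rpl28, chr7:4792954-4792983, plus strand: ctctcgtgtctCTCTTTCCgtctccggccg

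Searched on both strands, CCGGAAG was in 36.1% of the member windows and in 8.86% of all windows. CTCTTTCC was in 18.1% of the member windows and 3.12% of all windows, and the shorter CTTTCC, which lies inside it, in 50% and 26.6%. Windows of a gene can overlap and count the same stretch more than once. The 13 member windows with CTCTTTCC came from 10 genes. AAGATGG, the core bound by YY1, was in 15.3% of the member windows against 6.34% of all. CACGTG, the E-box that Myc and related factors bind, was in 11.1% against 7.15%, and TATAAA, the TATA box, in 8.33% against 13.6%. These shares describe letters in the windows and say nothing of binding in these mice.

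Taken as a sum, ribosomal protein messages were a larger part of the colon transcriptome in all 3 DSS mice than in any other mouse. The 80 members took 15.62%, 14.22% and 14.58% of all counts in the control mice. They took 20.21%, 18.37% and 16.96% in the DSS mice, and 14.77%, 15.45% and 14.93% in the DSS + EA mice. The means were 14.81% ± 0.727 (SD, n = 3), 18.51% ± 1.63 (SD, n = 3) and 15.05% ± 0.356 (SD, n = 3), so that the DSS mean was 1.25 times the control mean and 1.23 times the DSS + EA mean, and the DSS + EA mean was 1.016 times that of control. The DSS shares lay above those of both other groups without overlap, while the control and DSS + EA shares overlapped. A sum over the members was given no test. Wilson 95% intervals were within 0.0441 percentage points of each share, so that the spread between mice and not the counting error set the precision.

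**Figure D1:**
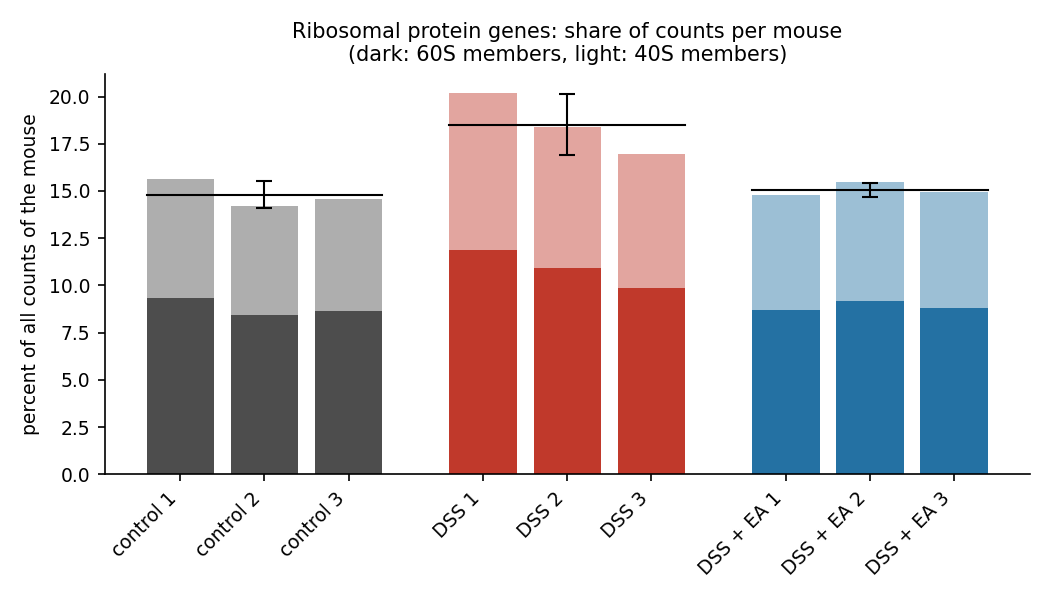
Share of all counts that fell on the 80 ribosomal protein genes in each mouse, in percent, split into 60S members (dark) and 40S members (light); horizontal lines are group means and error bars their SD (n = 3). The 3 DSS mice stand at 20.21%, 18.37% and 16.96%, above all 6 other mice, which lie between 14.22% and 15.62%.

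The subunits kept their proportion. The counts on 60S genes divided by those on 40S genes gave 1.485, 1.45 and 1.452 in the control mice, 1.433, 1.472 and 1.383 in the DSS mice and 1.441, 1.47 and 1.437 in the DSS + EA mice, with overlap between all groups.

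DSS mouse 1 carried much of the difference. Of the 77 members tested, 64 had their highest level of all 9 mice there, against 4 in DSS mouse 2 and 4 in DSS mouse 3. The median member stood at 1.4 times its control mean in DSS mouse 1, and at 1.12 and 1.15 times in DSS mice 2 and 3. On the log2 scale the same ratio to the control mean was -0.05, 0.13 and 0.05 in DSS + EA mice 1 to 3. The lowest level of the 9 mice fell in DSS + EA mouse 1 for 25 members and in control mouse 3 for 21. Without DSS mouse 1 the mean share of the DSS group was 17.66%.

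**Figure D2:**
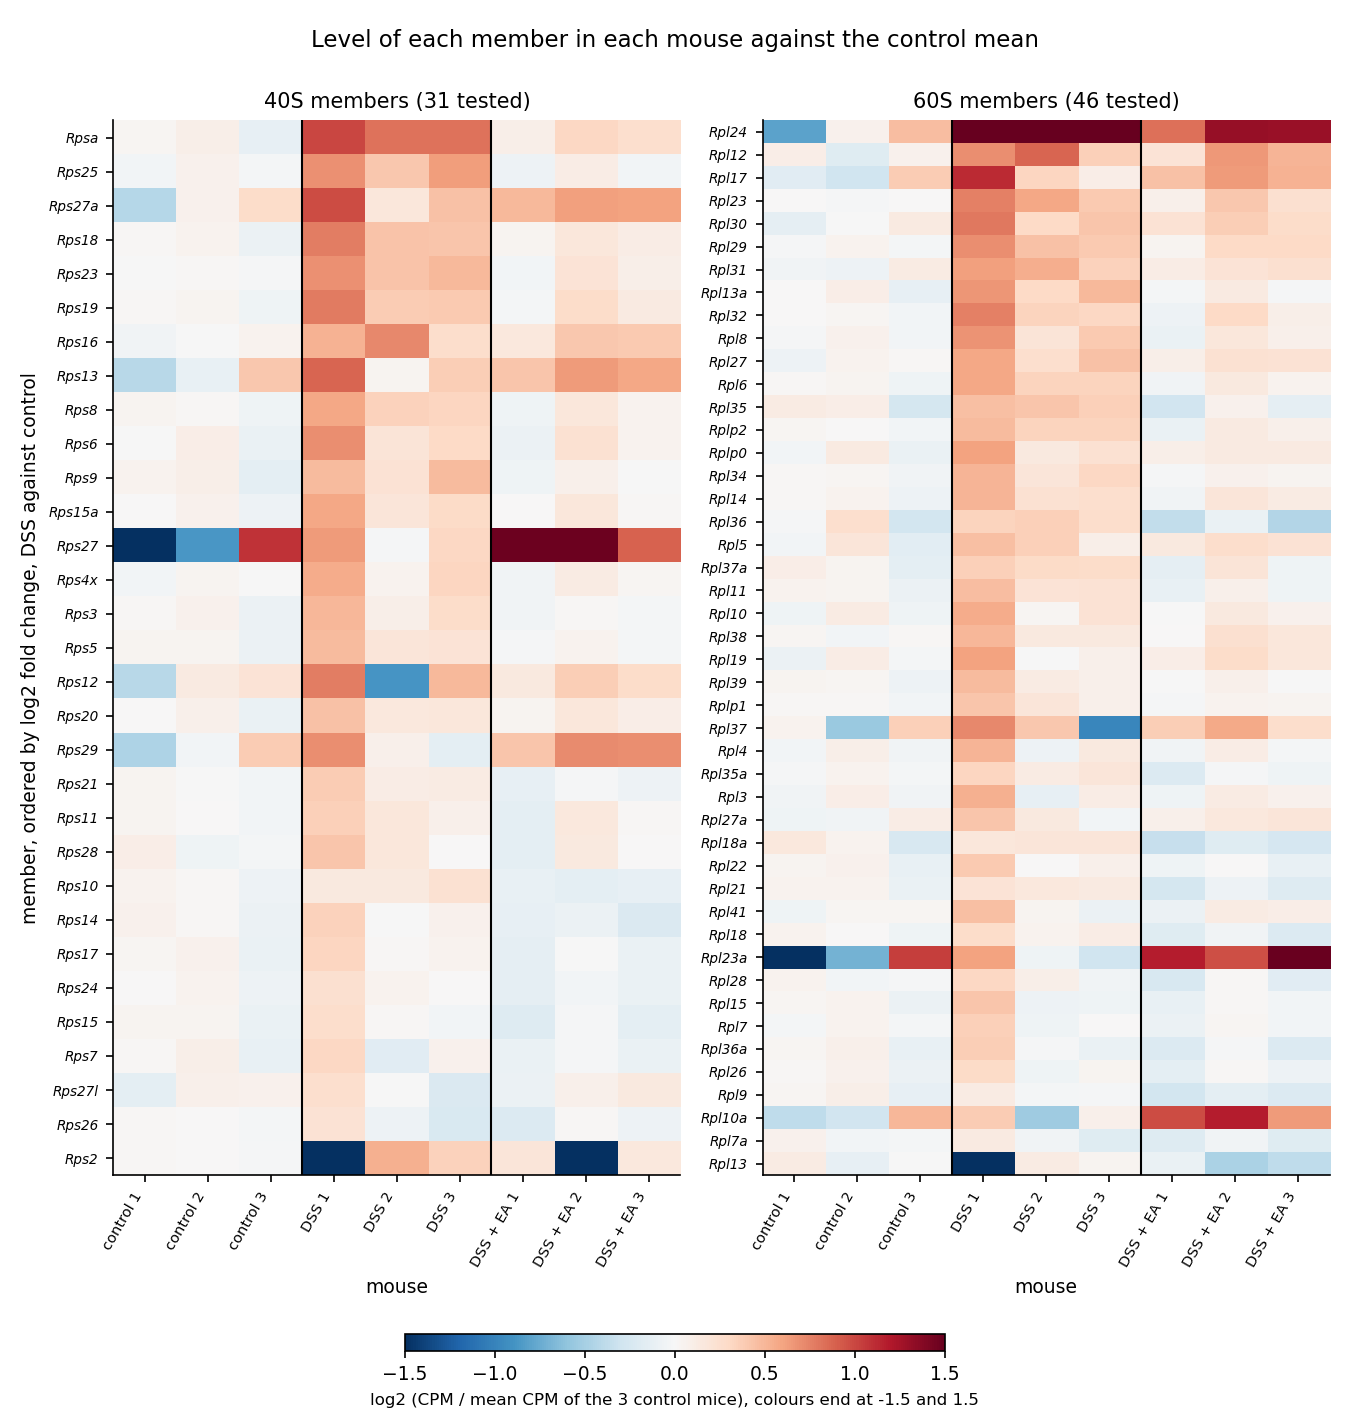
Log2 ratio of the CPM of each tested member in each mouse to its mean in the 3 control mice, with 40S members on the left and 60S members on the right, ordered by the log2 fold change of DSS against control; colours end at a ratio of 1.5 on the log2 scale in either direction. The column of DSS mouse 1 is raised for most rows, the other DSS mice are raised less, and a few rows (Rps2, Rpl13, Rps12, Rpl37, Rps27, Rpl23a) depart from the rest in single mice.

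Most members varied little between mice of a group. The median coefficient of variation (the SD as a percent of the mean) was 5.5% in control, 14.2% in DSS and 6.72% in DSS + EA, against 18.1%, 32.4% and 19.4% for all genes tested. It was under 20% for 67, 61 and 75 of the 77 members in these groups.

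The first comparison, DSS against control, asks what the injury did to the members. Of 77 tested, 13 rose, none fell and 64 did not pass the test (edgeR, adjusted p under 0.05). Among all 12566 genes tested 21.5% rose and 19.5% fell, so that the share of members that rose was under the background while none fell. The log2 fold change was above 0 for 73 of the 77 members, or 94.8%, against 50.8% of all genes, and its median was 0.28 against 0.02 for all genes. By DESeq2 the median of the members was also 0.28, but that of all genes was 0.11. All 3 DSS mice were above all 3 control mice for 43 members and below them for none, where 26.1% and 25.9% of all genes had such separate groups. An unadjusted p under 0.05 was found for 22 members, where 49.8% of all genes had one. None met the rule of the study for differentially expressed genes (DEGs, a log2 fold change beyond 2.5 and an unadjusted P under 0.01), which 10.2% of all genes met in either direction. By subunit, 6 of 31 members of the 40S subunit rose (median log2 fold change 0.29) and 7 of 46 of the 60S subunit (median 0.26).

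The number of calls changed when single mice were left out. It was 2 without control mouse 1 or control mouse 2, 4 without control mouse 3, 10, 13 and 12 without DSS mouse 1, 2 or 3, and 6, 5 and 5 without DSS + EA mouse 1, 2 or 3, and it was 17 by DESeq2. These counts leave out Rpl3l, which entered and was called by DESeq2 and in 7 of the 9 fits without a mouse, those without DSS mouse 2 or 3 being the exceptions. The median log2 fold change fell to 0.16 without DSS mouse 1. Rpl24 and Rpsa kept their calls under all 20 alternative fits. Each of the other 11 members lost its call under 6 to 12 of them. Among these were the fits without control mouse 1, 2 or 3 and that with no filter on low counts. The 20 leave out the other call rules. By the DEG rule no member was called, and with a log2 fold change beyond 1 only Rpl24 was.

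Rpl24, a 60S protein at the face that joins the 40S subunit, changed most. Its levels were 136.4, 248.7 and 329.3 CPM in the control mice, 837.5, 762 and 856.4 CPM in the DSS mice, and 422.8, 588.6 and 586.3 CPM in the DSS + EA mice. The 3 groups did not overlap, with the DSS + EA mice in between. The gene (ENSMUSG00000098274, chr16:55966275-55971435, plus strand) had a mean of 238.1 ± 96.9 CPM (SD, n = 3) in control and 818.6 ± 49.9 CPM (SD, n = 3) in DSS, a log2 fold change of 1.78 ± 0.30 (SE, edgeR adjusted p = 0.00142).

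Rpsa, the 40S protein also known as the laminin receptor, was the next. Its levels were 1150, 1201 and 1040 CPM in control, 2263, 1981 and 1982 CPM in DSS and 1203, 1405 and 1348 CPM in DSS + EA. The DSS mice stood clear of the other 6 mice, and DSS + EA mouse 1 lay beside control mouse 2. The gene (ENSMUSG00000032518, chr9:120127689-120132369, plus strand) rose by 0.88 ± 0.17 on the log2 scale (SE, edgeR adjusted p = 0.00274), which is 1.84-fold.

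Among the other 40S members that rose was Rps25, a protein of the 40S head that many viral internal ribosome entry sites need. It was at 1617, 1728 and 1627 CPM in control, 2664, 2199 and 2567 CPM in DSS and 1569, 1791 and 1614 CPM in DSS + EA. The DSS mice were again above all others, and the range of the DSS + EA mice covered that of control. Its log2 fold change was 0.58 ± 0.17 (SE, edgeR adjusted p = 0.0191). The remaining 4 were Rps18 (log2 fold change 0.54), Rps23 (0.54), Rps19 (0.53), the gene most often mutated in Diamond-Blackfan anaemia, and Rps16 (0.51), with edgeR adjusted p-values from 0.0286 to 0.0429.

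Of the 60S members, Rpl12, a protein at the base of the stalk that recruits elongation factors, was at 1021, 841.5 and 999.2 CPM in control, 1549, 1753 and 1222 CPM in DSS and 1103, 1497 and 1356 CPM in DSS + EA. Control mice were below all others, and DSS and DSS + EA mice overlapped. Its log2 fold change was 0.66 ± 0.20 (SE, edgeR adjusted p = 0.0261). Rpl23, which can bind and block the p53 ligase Mdm2, rose from 1852, 1821 and 1855 CPM to 3108, 2758 and 2424 CPM (log2 fold change 0.58 ± 0.18 SE, edgeR adjusted p = 0.0241). Rpl30, Rpl29, Rpl31 and Rpl13a, the last a protein that is also released to silence inflammatory messages, rose by 0.52, 0.51, 0.51 and 0.49 on the log2 scale.

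Most members with well known roles that did not pass the test had log2 fold changes above 0, with Rps2 an exception at -0.09 (edgeR adjusted p = 0.937). The S6 kinase substrate Rps6 was at 2362, 2546 and 2211 CPM in control, 3845, 2717 and 2928 CPM in DSS and 2226, 2785 and 2463 CPM in DSS + EA, with a log2 fold change of 0.41 (edgeR adjusted p = 0.114). The log2 fold changes of the stalk genes Rplp0, Rplp1 and Rplp2 were 0.34, 0.23 and 0.38. Those of Rpl5 and Rpl11, which carry 5S RNA and also bind Mdm2, were 0.31 and 0.30. They were 0.20 for Rpl3 and 0.21 for Rpl4, at the catalytic centre and the exit tunnel, 0.30 for Rps3, at the entry of the messenger RNA, 0.28 for the late joining Rpl10, 0.32 for Rps4x, 0.17 for Rpl22, 0.27 for Rpl38, 0.24 for Rpl39 and 0.14 for Rps14. Rpl41, the most abundant per length, was at 7259, 7794 and 7778 CPM in control, 10430, 7816 and 7161 CPM in DSS and 7147, 8312 and 8123 CPM in DSS + EA, so that DSS mouse 1 alone was high (log2 fold change 0.15, edgeR adjusted p = 0.554).

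The second comparison, DSS + EA against DSS, asks how the treated colitis differed from the untreated one. It shares the DSS mice with the first, so a value that is high in them by chance enters both with opposite sign. Here 1 member rose, 3 fell and 73 did not pass the test (edgeR, adjusted p under 0.05), while 17.2% of all genes rose and 18.3% fell. The members called were thus fewer than in the background. The log2 fold change was below 0 for 68 of 77 members, with a median of -0.23 against -0.02 for all genes. By DESeq2, which also tests less abundant genes, the members had nearly the same median, -0.22, but that of all genes was -0.17. All DSS + EA mice were below all DSS mice for 38 members, where 23.3% of all genes were, and above them for 3, where 24.2% were. An unadjusted p under 0.05 was found for 11 members, where 46.9% of all genes had one, and none was a DEG by the rule of the study, which 6.41% of all genes met.

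Rpsa fell by 0.65 ± 0.17 on the log2 scale (SE, edgeR adjusted p = 0.0137) and Rps25 by 0.58 ± 0.17 (SE, edgeR adjusted p = 0.0228), with the levels given above. Rpl36, a 60S protein, was at 851.7, 1025 and 715.6 CPM in control, 1085, 1111 and 1038 CPM in DSS and 671, 809.1 and 634.8 CPM in DSS + EA. It was lower in all DSS + EA mice than in all DSS mice, and the control mice spread over much of the gap. The gene (ENSMUSG00000057863, chr17:56613416-56614243, plus strand) fell by 0.61 ± 0.19 on the log2 scale (SE, edgeR adjusted p = 0.0305). Its own difference between DSS and control was 0.32 (edgeR adjusted p = 0.201).

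Rpl10a, a protein of the stalk where spent transfer RNA leaves, went the other way. It was at 424.1, 456.2 and 782.9 CPM in control, 721.6, 382.4 and 584.9 CPM in DSS and 1090, 1250 and 863.9 CPM in DSS + EA. The DSS + EA mice were above all others, and the DSS and control mice overlapped. The gene (ENSMUSG00000037805, chr17:28328471-28331033, plus strand) rose by 0.92 ± 0.30 on the log2 scale (SE, edgeR adjusted p = 0.0394) from DSS to DSS + EA, and differed by 0.02 between DSS and control (edgeR adjusted p = 0.961). Rpl24 did not pass the test, with a log2 fold change of -0.62 (edgeR adjusted p = 0.12).

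These calls changed with single mice left out too. Members that fell numbered 0 without DSS + EA mouse 1, 2 without DSS + EA mouse 2 and 1 without DSS + EA mouse 3, the last 2 being the mice with pancreatic messages, and 4 without DSS mouse 1, where Rpl3l, not counted here, was called as well. The median log2 fold change of the members was -0.24 without DSS + EA mouse 2, -0.25 without DSS + EA mouse 3 and -0.13 without DSS mouse 1. The Rpsa call was lost without DSS + EA mouse 1, and that of Rpl10a without any single DSS + EA mouse and without DSS mouse 2 or 3.

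**Figure D3:**
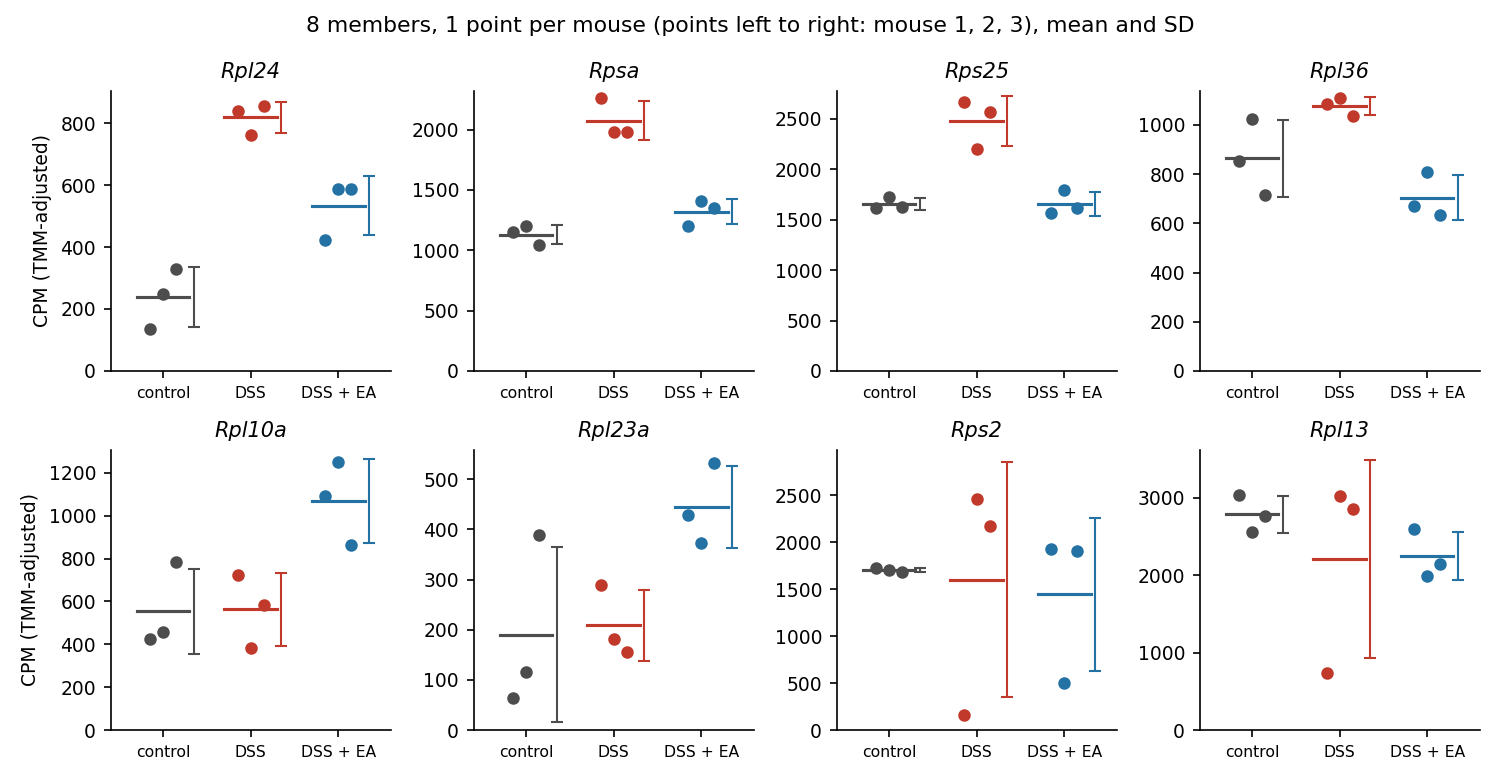
CPM of 8 members in each mouse (1 point per mouse, mouse 1 to 3 from left to right), with the group mean as a line and the SD (n = 3) as an error bar; each panel has its own axis, which starts at 0. Rpl24, Rpsa and Rps25 are highest in the 3 DSS mice, Rpl10a and Rpl23a tend to be highest in the DSS + EA mice, and Rps2 and Rpl13 have single low mice, such as 165 CPM for Rps2 in DSS mouse 1.

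The third comparison, DSS + EA against control, asks what remained after treatment. No member was called higher or lower by edgeR at an adjusted p under 0.05, where 3% of all genes were higher and 0.637% lower. DESeq2 called 1 member higher. An unadjusted p under 0.05 was found for 5 members, where 17% of all genes had one, and the median log2 fold change was 0.04 against 0.00 for all genes. No member was a DEG by the rule of the study, which 2.08% of all genes met. All DSS + EA mice were above all control mice for 12 members, where 18% of all genes were, and below for 4 (Rpl7a, Rpl9, Rps10 and Rps14), where 14.2% were. The log2 fold change was 1.23 for Rpl23a (edgeR adjusted p = 0.295) and 1.16 for Rpl24 (edgeR adjusted p = 0.0632). That of the Rps27 row was 1.31 (edgeR adjusted p = 0.268), but -0.09 with its near-identical copy added (edgeR adjusted p = 0.861). Without control mouse 3 the number called higher was 3. Without DSS + EA mouse 2 or 3 no member was called in either direction, and the median was 0.01 and 0.00.

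To see which members moved out of step with the rest, the fit was repeated with the summed ribosomal protein counts of each mouse as its library size. A log2 fold change on this scale is a change in the share that a gene has of the ribosomal protein pool. This choice holds the members as a set near 0 and shifts other genes against them. In DSS against control the median was -0.02 for the members and -0.25 for all genes. The shares of all genes called are therefore given beside the members but are no independent background here. In DSS against control, 2 members rose and none fell, against 15.2% and 28.3% of all genes. They were Rpl24, by 1.5 on the log2 scale (edgeR adjusted p = 0.00269), and Rpsa, by 0.59 (edgeR adjusted p = 0.00363). In DSS + EA against DSS, 1 member rose and 2 fell, against 25.2% and 12.7% of all genes: Rpl10a rose by 1.17 (edgeR adjusted p = 0.00973), Rpsa fell by 0.43 (edgeR adjusted p = 0.02) and Rps25 fell by 0.35 (edgeR adjusted p = 0.0455). With single mice left out, and Rpl3l not counted, 2 to 3 members rose in DSS against control, while the falls from DSS to DSS + EA numbered 0 whichever DSS + EA mouse was left out. In DSS + EA against control no member was called, against 2.08% of all genes higher and 0.613% lower.

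A few members departed from the family in single mice, and these were picked out after their values were seen. Rps2, of the 40S subunit, was at 1721, 1704 and 1679 CPM in control, 165, 2461 and 2170 CPM in DSS and 1929, 506 and 1902 CPM in DSS + EA. Its control mice were nearly equal, while DSS mouse 1, highest for most members, and DSS + EA mouse 2 were far under the others. Rpl13 was at 736.3 CPM in that same DSS mouse 1, against 3023 and 2854 CPM in the other DSS mice and 2554 to 3030 CPM in control. Rps12 was low in DSS mouse 2 (1157 CPM, against 3640 and 2974 CPM), and Rpl37 in DSS mouse 3 (685.8 CPM, against 2228 and 1791 CPM). None of the 4 passed the test in any comparison. The cause was not tested.

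In 11 of the 77 tested members control mouse 1 was the lowest and control mouse 3 the highest of the control group, among them Rpl24 and Rpl10a, with the levels given above. The order was not counted over all genes, so the 11 are given as single members and not as a pattern of the family. Rpl23a was at 64.55, 116.1 and 389.7 CPM in control, 289.5, 182.2 and 155.1 CPM in DSS and 428.5, 372.3 and 532.8 CPM in DSS + EA. Control mouse 1 was the lowest and control mouse 3 lay within the range of the DSS + EA mice. The order also held for Rps27a, a fusion of ubiquitin with a 40S protein (734, 1027 and 1189 CPM in control, 1933, 1102 and 1331 CPM in DSS, 1379, 1505 and 1494 CPM in DSS + EA), for Rps13 (969.9, 1202 and 1711 CPM in control) and for Rps29 (1518, 2036 and 2719 CPM in control). Without control mouse 3, the members called higher in DSS + EA than in DSS numbered 3 in place of 1.

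Rps27 has a near-identical copy in the table that held most of the counts of the pair. The Rps27 gene has 4 exons (chr3:90212522-90213651, minus strand), and Rps27rt is a copy with a single exon (chr9:114982366-114982739, minus strand), which the naming rule does not take in. The 2 transcripts are 100% identical over 341 nt, and their coding sequences of 255 nt have 0 differences. The coding sequence, shown because a read of it fits both genes equally, is given from the GENCODE M21 transcripts with the start and stop codons in capitals.
Rps27 and Rps27rt: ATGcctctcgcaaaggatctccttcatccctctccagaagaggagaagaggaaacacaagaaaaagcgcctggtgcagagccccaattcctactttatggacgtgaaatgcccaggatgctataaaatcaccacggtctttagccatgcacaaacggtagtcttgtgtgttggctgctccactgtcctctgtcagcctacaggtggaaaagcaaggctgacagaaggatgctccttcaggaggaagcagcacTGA

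The row of Rps27 held 12.1, 19.79 and 76.42 CPM in control, 56.17, 35.57 and 44.89 CPM in DSS and 99.96, 100.4 and 66.41 CPM in DSS + EA. That of Rps27rt held 3684, 3567 and 3483 CPM in control, 5159, 3341 and 4123 CPM in DSS and 3302, 3521 and 3096 CPM in DSS + EA. The Rps27 row thus had 0.327% to 2.94% of the sum. The row alone and the sum differ in direction between DSS + EA and DSS. The log2 fold change was 0.97 for the Rps27 row (edgeR adjusted p = 0.192) and -0.33 ± 0.20 (SE, edgeR adjusted p = 0.213) for the sum. Between DSS and control it was 0.35 for the row (edgeR adjusted p = 0.646) and 0.24 for the sum (edgeR adjusted p = 0.359).

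**Figure D4:**
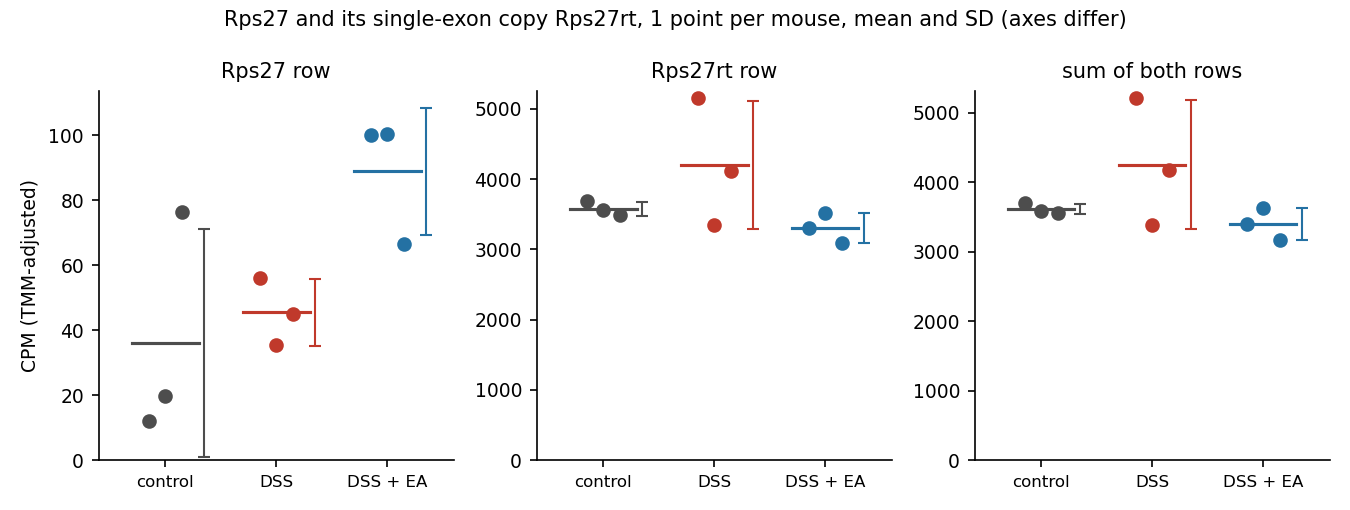
CPM per mouse on the row of Rps27, on the row of its copy Rps27rt with a single exon, and on their sum (1 point per mouse, mouse 1 to 3 from left to right, line at the mean, error bar the SD, n = 3; the 3 axes differ). The Rps27 row lies between 12.1 and 100.4 CPM and the Rps27rt row between 3096 and 5159 CPM, and the highest group differs between the panels.

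Other members share sequence with other rows of the table. Only rows with an Ensembl identifier found in GENCODE M21 were searched. Of these, rows at least 90% identical over 250 nt or more numbered 24, for 19 members, and 7 of the 24 had a mean of at least 10 counts. Besides Rps27rt they were copies or overlapping transcripts of Rpl10, Rpl13a, Rpl21, Rpl35, Rplp2 and Rps10. For Rpl10, on the X chromosome, the copy Rpl10-ps3 had 137, 696 and 80 counts in the DSS mice and 0 to 175 in the control mice. Adding all such rows to their members left 13 members higher in DSS than in control and added Rpl35 to the members that fell from DSS to DSS + EA (log2 fold change -0.52, edgeR adjusted p = 0.0493). Rpl24, Rpsa, Rps25 and Rpl10a had no such row among those searched. Whether they share reads with rows without an Ensembl identifier was not examined. The values of members with counted copies are uncertain, since reads could be divided between the rows.

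Some ribosomal proteins that the naming rule leaves out behaved in part like the members. In DSS against control the log2 fold change was 0.37 for Rps3a1 (edgeR adjusted p = 0.142) and 0.34 for Fau (0.209), the fusion that yields the 40S protein eS30. It was -0.22, -0.21 and -0.07 for the paralogs Rpl22l1, Rpl36al and Rpl7l1 (0.348, 0.317 and 0.84). Rps27l, a stress-induced paralog of Rps27 within the rule, had 0.02 (0.943). None passed the test. Of the reference genes Gapdh rose by 0.73 (edgeR adjusted p = 0.0115), while Actb had 0.58 (0.116), B2m 0.42 (0.273), Hprt 0.09 (0.787) and Tbp -0.52 (0.24).

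The counts of the gene lists below stand against 21.5% of all genes higher and 19.5% lower in DSS against control, and 17.2% higher and 18.3% lower in DSS + EA against DSS. The proteins of the mitochondrial ribosome, encoded in the nucleus by another gene family, had medians of the opposite sign. Of 77 tested, 24 fell and 3 rose in DSS against control, with a median of -0.35 on the log2 scale, where 13 cytosolic members rose and none fell. From DSS to DSS + EA 29 rose and 1 fell, with a median of 0.36, and between DSS + EA and control none was called. Without DSS + EA mouse 2, 19 rose and none fell from DSS to DSS + EA, and without mouse 3, 12 rose and 1 fell. None was called between DSS + EA and control without either mouse. Mrpl14 was at 163.6, 170.2 and 162.7 CPM in control, 79.15, 55.4 and 56.97 CPM in DSS and 145.6, 144.8 and 146.7 CPM in DSS + EA (log2 fold change -1.38 in DSS against control, edgeR adjusted p = 0.000425). Mrpl49 was at 37.94 to 46.14 CPM in control, 14.87 to 17.65 CPM in DSS and 44.45 to 47.21 CPM in DSS + EA. Both had DSS mice far under the other groups. Mrpl33 was an exception, at 235 to 247.8 CPM in control, 390 to 422 CPM in DSS and 257.1 to 272.5 CPM in DSS + EA (log2 fold change 0.73, edgeR adjusted p = 0.00363).

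Ribosome assembly factors, of the nucleus and of the cytoplasm, had a median on the same side as the cytosolic members. Of 54 tested, 18 rose and 2 fell in DSS against control, with a median log2 fold change of 0.49. Nmd3, the export adapter of the 60S subunit, was at 28.24, 45.85 and 34.98 CPM in control, 101.2, 93.77 and 104.3 CPM in DSS and 51.94, 66.68 and 60.11 CPM in DSS + EA (log2 fold change 1.46, edgeR adjusted p = 0.000678). Rrs1, needed to place 5S RNA in the 60S subunit, rose by 1.44 on the log2 scale (edgeR adjusted p = 0.00106). Tsr1, a 40S maturation factor, fell by 0.74 (edgeR adjusted p = 0.0162), and Utp20 by 0.89 (edgeR adjusted p = 0.0302). From DSS to DSS + EA 3 rose and 7 fell, among them Nmd3 (-0.74), Rrs1 (-0.87) and Gnl2 (-0.90), while Tsr1 (0.97) and Tcof1 (0.85) rose. Without DSS + EA mouse 2 these counts were 3 and 3, and without mouse 3 they were 1 and 3. Between DSS + EA and control none was called, with or without either of these mice, and the median was 0.35.

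A list of translation factors and some other genes whose messages also carry a TOP motif had a median near that of the members. It was 0.21 in DSS against control and -0.22 in DSS + EA against DSS. Of 23 tested, 2 rose and none fell in the first: Hnrnpa1, from 182, 191 and 185.2 CPM to 344.1, 302.2 and 367.8 CPM (log2 fold change 0.86, edgeR adjusted p = 0.00249), and the nucleolar chaperone Npm1 (0.59, edgeR adjusted p = 0.0179). From DSS to DSS + EA 3 fell, among them Hnrnpa1 (-0.62) and Eif3f (-1.12), and none rose. Without DSS + EA mouse 2 none fell, and without mouse 3 there was 1. None was called between DSS + EA and control, with or without either mouse. Of 27 other initiation and elongation factors, 5 rose and 2 fell in DSS against control. Eif4g3, a scaffold of the cap-binding complex, rose by 1.12 and the helicase Eif4a2 fell by 1.51 (edgeR adjusted p = 0.0019), from 309.1, 344.1 and 376 CPM to 166, 75.45 and 119.5 CPM. From DSS to DSS + EA 4 of these rose and 1 fell, and Eif1a was the single gene of the list called between DSS + EA and control (0.72, edgeR adjusted p = 0.0484). Without DSS + EA mouse 2, 4 rose and 1 fell from DSS to DSS + EA, without mouse 3, 1 rose and none fell, and the Eif1a call was lost without either.

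**Figure D5:**
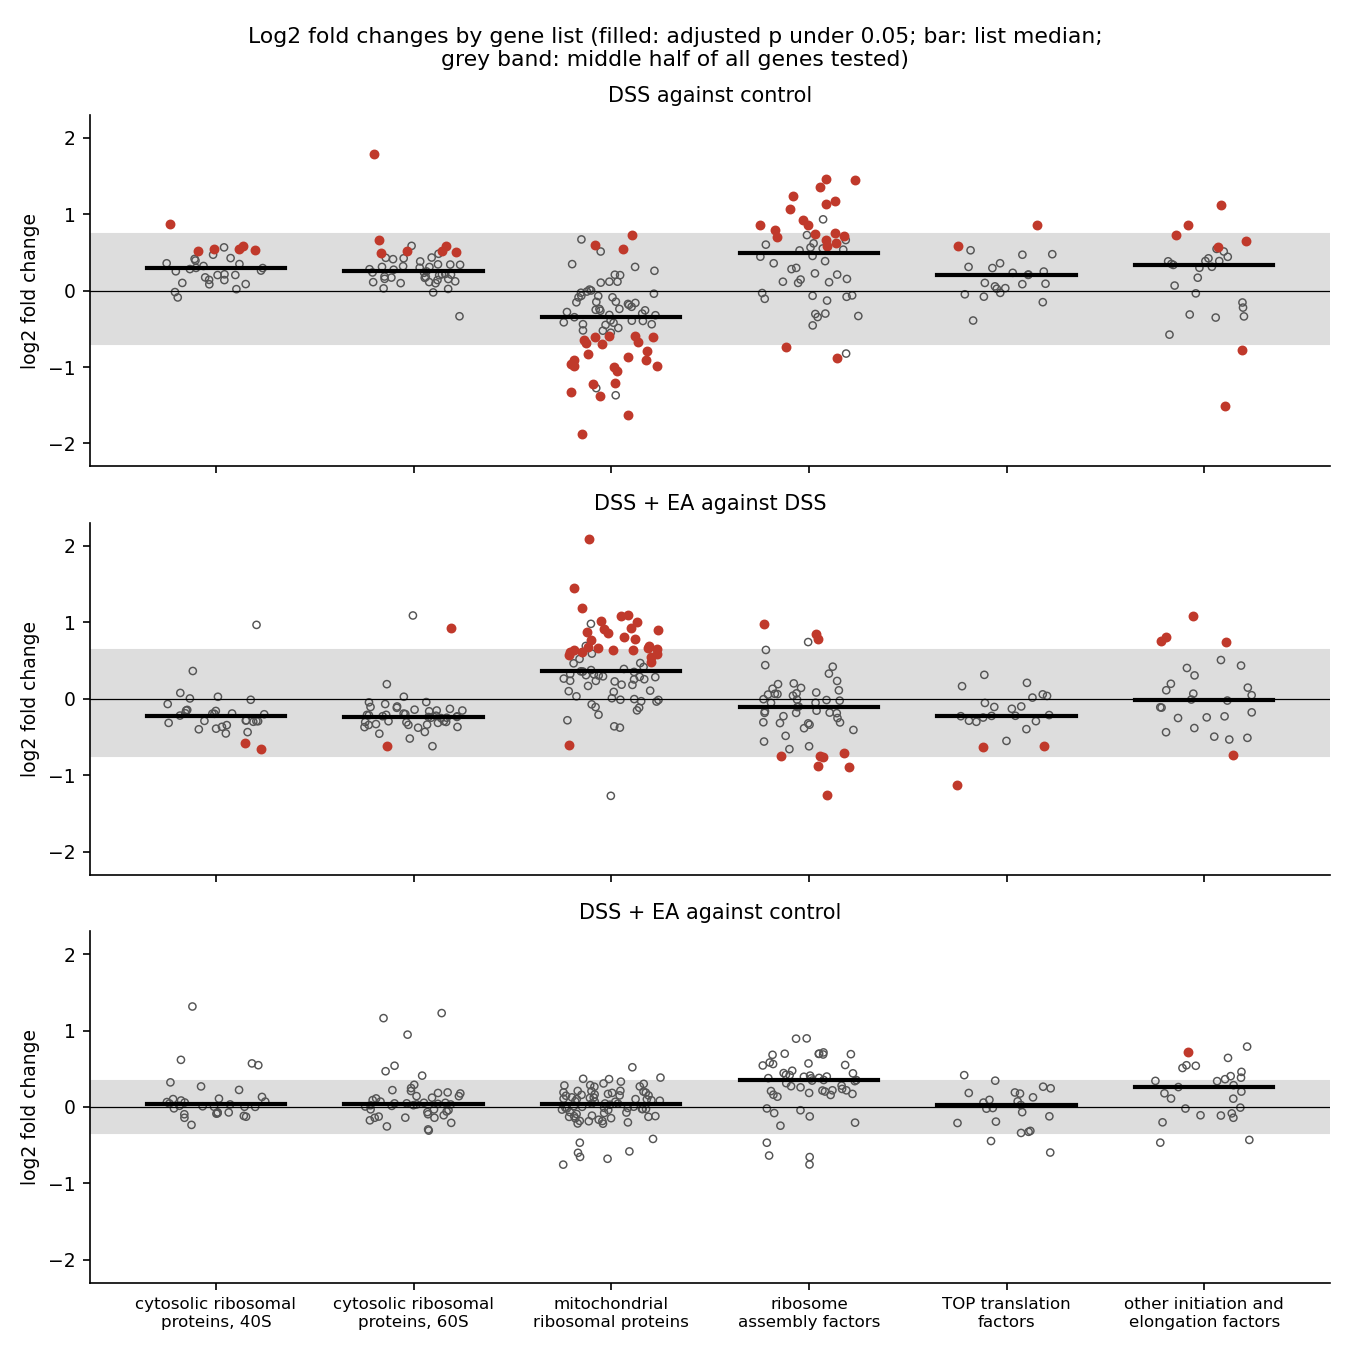
Log2 fold change (edgeR) of every tested gene of 6 lists in the 3 comparisons; filled points passed an adjusted p under 0.05, bars are list medians and the grey band spans the middle 50% of all genes tested. In DSS against control the 40S and 60S members lie mostly above 0 inside the band (medians 0.29 and 0.26) and the mitochondrial ribosomal proteins mostly below 0 (median -0.35), and both are reversed in DSS + EA against DSS.

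Of 15 tested genes of RNA polymerase I, which transcribes ribosomal RNA, and its factors, 2 rose (Taf1d by 0.80, Rrn3 by 0.66) and 2 fell (Polr1c by 0.69, Ttf1 by 1.17, on the log2 scale) in DSS against control, and 2 rose and 1 fell from DSS to DSS + EA (1 and 1 without DSS + EA mouse 2 or 3). Among 26 tested genes of mTORC1 and its neighbours, 6 rose and 6 fell in DSS against control, and 4 rose and 5 fell from DSS to DSS + EA. Ddit4, an inhibitor of mTORC1 that stress induces, was at 86.73, 88.41 and 79.85 CPM in control, 496.3, 367.1 and 333.1 CPM in DSS and 130.5, 176.7 and 154.2 CPM in DSS + EA, with log2 fold changes of 2.23, -1.37 and 0.85 in the 3 comparisons (edgeR adjusted p = 7.93e-05, 0.00127 and 0.0489). Eif4ebp1, the repressor of cap-dependent initiation that mTORC1 switches off, rose by 1.64 in DSS (edgeR adjusted p = 0.000246) and fell by 1.21 from DSS to DSS + EA. The Myc antagonist Mxd1 fell by 1.95 and Nprl2, a subunit of the GATOR1 inhibitor, by 1.82 in DSS against control. Among 18 genes of ribosome stalling and surveillance, 3 rose (Bzw1 by 0.87, the rescue factor Pelo by 1.37 and Mdm2 by 1.52) and 1 fell (Ascc2, by 1.15). The calls of Mdm2 and Pelo rest on low counts. Mdm2 had 26, 19 and 7 counts in control and 24, 91 and 58 in DSS. Pelo had 28, 16 and 22 counts in control and 41, 115 and 49 in DSS. From DSS to DSS + EA 2 genes of this list rose and 3 fell. In that second comparison the mTORC1 list had 4 higher and 5 lower without DSS + EA mouse 2 and 4 and 4 without mouse 3, and the stalling list 2 and 2, and 0 and 1. The Ddit4 call between DSS + EA and control was lost without either of these mice, as no gene of these lists was then called in that comparison.

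Annotated transcript length, for each gene the median of its transcripts, was compared as well. It need not be the length of the messages read. By this measure Rps20 (3706 nt) and Rps15a (5130 nt) are among the longer members. Genes outside the family under 1000 nt had a median log2 fold change of -0.15 in DSS against control and 0.14 in DSS + EA against DSS (n = 1453). Those of 1000 to 1999 nt had -0.16 and 0.17 (n = 2971), and those of 2000 to 3999 nt -0.01 and 0.03 (n = 4361). The longest genes, from 4001 nt, had 0.22 and -0.30 (n = 2318). The 61 members under 1000 nt had 0.27 and -0.24, and the 16 longer ones 0.32 and -0.21.

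The summed levels of cell type markers moved with the groups as well, and their part in the levels of the members was not tested. The summed level of 8 neutrophil markers, mostly S100a8, was 132.6, 157.4 and 22.43 CPM in control, 4396, 22960 and 26190 CPM in DSS and 1457, 1184 and 1576 CPM in DSS + EA, with Trem1 at 0 in all control mice. The sum of 6 macrophage markers, led by C1qb, rose from 164.6, 172.2 and 188.2 CPM in control to 707.9, 744.6 and 1060 CPM in DSS and was 490.1, 432.7 and 488.8 CPM in DSS + EA. That of 6 fibroblast markers, led by Dcn, was 747.6, 817.1 and 814.1 CPM, 4046, 4813 and 6742 CPM, and 1689, 1599 and 1651 CPM in the same order of groups.

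Epithelial markers went the other way. Those of absorptive colonocytes, 10 genes led by Car1, summed to 14230, 9549 and 25930 CPM in control, 5732, 2156 and 1064 CPM in DSS and 10370, 13620 and 7103 CPM in DSS + EA. Goblet cell markers, 6 genes led by Zg16, summed to 13290, 18300 and 13090 CPM, 3614, 1970 and 510.9 CPM, and 12110, 13140 and 11910 CPM. Markers of cycling crypt cells, 7 genes led by Top2a, overlapped between control (182.5, 203.5 and 214.4 CPM) and DSS (170.1, 292.7 and 168.1 CPM) and were 256.4, 231.9 and 300.9 CPM in DSS + EA, with Olfm4 at 0 in the control mice.

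Of the remaining lists, 6 B and plasma cell markers, led by Jchain, summed to 1458, 2776 and 1885 CPM in control, 410.4, 429.6 and 137.5 CPM in DSS and 647.1, 413.4 and 776.7 CPM in DSS + EA. The 6 smooth muscle markers, led by Tagln, summed to 3499, 3351 and 2822 CPM, 1788, 1127 and 2159 CPM, and 2255, 2192 and 2223 CPM. Of 6 T cell markers 5 were in the table, led by Cd3d, and summed to between 7.587 and 21.4 CPM in all mice. Among the 10 pancreatic markers Amy2a5, Cel and Prss1 were at 0 in the control mice. Transcripts of the mitochondrial genome took 0.70% to 1.41% of the counts, with overlap between groups, and rows without an Ensembl identifier took 4.319% to 5.535% in control, 6.481% to 7.115% in DSS and 3.83% to 3.888% in DSS + EA.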

How the data were processed

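Total RNA of the colon was copied into full-length cDNA with the cDNA-PCR protocol of Oxford Nanopore and sequenced on a PromethION. The authors deposited whole-number read counts per gene, with no normalization. The submitters' processing notes name the build mm10, and the aligner, counter, annotation and use of strand are not given in the sources used here, so that overlapping, antisense and near-identical genes may share reads. The table has 27733 lines, of which 14 held no counts. No 2 libraries were identical, and the replicates are separate mice.

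The test was that of edgeR 4.0.16 in R 4.3.3 (TMM, filterByExpr by group, quasi-likelihood F test, prior count 0.125) in a single fit of the 9 libraries with group as the only term, on 12566 genes, with Benjamini-Hochberg adjustment over all of them. A repeat used the summed ribosomal protein counts as library size. With 3 mice against 3 the smallest two-sided exact permutation p is 0.1, so single values were given no such test. Shares have Wilson 95% intervals. Lengths, positions and coding sequences come from GENCODE M21, copies from blastn 2.17.0 (E under 1e-20), and promoter windows from RefSeq GRCm38.p6. Tables and figures were made with matplotlib 3.10.9, pandas 2.3.3 and Python 3.11.15. The scripts were tested on simulated data.

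Members, gene lists and named genes were chosen with earlier results of these data known. Named were the 3 members with the largest log2 fold change in each direction among those called, members with a set role, paralogs, reference genes and, in each list, the 2 called genes of lowest P per direction. The rest of the 13 members called in DSS against control, members shown for their windows or copies, and genes at the edges of the family (Rpl13, Rps12, Rpl37, Rpl23a, Rps13, Rps20, Rps29, Rps27rt) were added after their values were seen.

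Alternatives were DESeq2 1.42.0, RLE factors, library totals, TMM without the members, only the 2 groups compared, Ensembl rows alone, no filter on low counts or a minimum mean of 20 counts, named pseudogenes added, the replicate number as a block, other call rules and each mouse left out. Adding near-identical copies was chosen after seeing the data. 1 gene is not reported here.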

Additional observations from a re-analysis of the deposited data

How the results depend on the processing

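No result changed sign while called. Of 4434 values of named genes under alternatives, 4104 kept their direction and side of the threshold, 180 lost a call, 38 gained one and 112 changed sign without a call. Rpl24 and Rpsa kept their calls in DSS against control under all 20 alternative fits, and Rpsa kept its fall from DSS to DSS + EA under 18. The 20 leave out the other call rules. By the DEG rule neither gene was called, and with a log2 fold change beyond 1 only Rpl24 was, in DSS against control.

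The 13 members higher in DSS than in control became 20 with library totals, 3 with no filter on low counts (Rpl24, Rpsa and Rpl3l, the last of which the filter removes), 3 with only the 2 groups compared, 2 with the replicate block, 0 by the DEG rule and 1 with a log2 fold change beyond 1. The 3 members lower in DSS + EA than in DSS became 7 by DESeq2 (1 of them Rpl3l), 15 with library totals, 1 with no filter (Rpl3l, with none of the 3 kept), 13 with a mean of at least 20 counts, 1 with only the 2 groups, 6 on Ensembl rows, and 0 by the DEG rule or a log2 fold change beyond 1. The 1 member higher became 3 with only the 2 groups, and 0 with the replicate block, the DEG rule or a log2 fold change beyond 1. In DSS + EA against control the count of 0 higher became 1 by DESeq2, 1 with no filter and 2 with only the 2 groups. Against the summed ribosomal protein counts, TMM over the members gave 1 member lower in DSS than in control in place of 0 and 1 lower in DSS + EA than in DSS in place of 2. The replicate block gave 1 there too, and 1 higher in DSS + EA than in control in place of 0. The causes were not tested.

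The replicate numbers do not pair the mice: deviations of same-numbered mice correlated by -0.163 to 0.111, and the block otherwise changed no count by over 1.5 times.

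Of the counts on Ensembl rows, members took 15.6% in control, 19.85% in DSS and 15.66% in DSS + EA. With the 50 most counted other genes left out of the total, the means were 19.04%, 22.17% and 18.36% in control, DSS and DSS + EA.

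With each mouse left out in turn, members higher in DSS than in control numbered 3 to 13 (2 to 13 when Rpl3l is not counted) and members lower 0, with a median log2 fold change of 0.1568 to 0.3548. In DSS + EA against DSS 0 to 3 were higher and 0 to 5 lower (0 to 4 when Rpl3l is not counted), with a median of -0.318 to -0.1349. In DSS + EA against control 0 to 3 were higher and 0 lower, with a median of 0.0023 to 0.0672. Against the summed ribosomal protein counts the ranges were 2 to 4 higher (2 to 3 without Rpl3l) and 0 to 1 lower, 1 to 4 higher and 0 to 4 lower (0 to 3 without Rpl3l), and 0 to 4 higher and 0 lower in the 3 comparisons. Mean shares were 14.4% to 15.1%, 17.66% to 19.29% and 14.85% to 15.19%. The median over all genes shifted to -0.17 by DESeq2 and -0.11 with no filter in DSS + EA against DSS, which left the members 0.05 below it in both. In DSS against control it shifted to 0.11 and 0.09, which left the members 0.18 and 0.17 above it, in place of 0.26. Standard errors of members were for most 0.15 to 0.20 on the log2 scale. The smallest change called was 0.49 (Rpl13a, DSS against control), while Rpl32 at 0.48 (edgeR adjusted p = 0.0693) was not called. This is no fixed limit. In the same comparison Rpl17 at 0.59 (edgeR adjusted p = 0.129) and Rps27a at 0.57 (edgeR adjusted p = 0.0967) were not called either.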
